A study of Mus musculus with 10 samples.

Results

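The set described here comprised 6 aquaporin genes of the mouse lens: Mip (which encodes AQP0), Aqp1, Aqp4, Aqp5, Aqp8 and Aqp11. They were taken by name, as every probe set whose single gene symbol was among these, with no use of their signals. That gave 6 of the 18193 named genes and 11 of the 45101 probe sets on the array. Whole lenses had been dissected from wild-type mice (WT) and from mice labelled as conditional null for Klf4 (Klf4CN). Embryos were taken on gestational day 16.5 (E16.5) and young adults on postnatal day 56 (PN56). A sample was a pool of lenses, from 5 embryos or from 3 adults, and was read on 1 array. Each genotype had 3 arrays at the embryonic stage and 2 at the adult stage. The sources used here do not give the driver of Cre or the strain. A whole lens holds an anterior layer of epithelium and a mass of fibre cells, so fewer cells of a type and less RNA per cell cannot be told apart in these samples.

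Aquaporins are membrane channels for water, and some also carry glycerol or other small solutes. The lens has no blood supply of its own and depends on a circulation of water and ions between its surface and its core. AQP0, named Mip after "major intrinsic protein", is the most abundant membrane protein of fibre cells, where it conducts water and helps to join neighbouring membranes, and its mutations cause cataract. AQP1 is the water channel of the lens epithelium, AQP5 occurs in epithelium and fibres, and AQP4 is best known from the endfeet of astrocytes and from Müller glia. AQP8 and AQP11 are better known from other organs, and AQP11 lies mainly on internal membranes. Klf4 encodes a zinc finger transcription factor of epithelia, including those of the eye surface.

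Some properties of the arrays as a whole bear on these values. The median signal of an array was 63.0 to 76.9 in embryos and 91.0 to 108.6 in adults, and arrays of a group correlated at r between 0.9508 and 0.9807 across tested genes (log2 signals). The dap spike, a control RNA, read 3655 ± 518 (WT) and 3576 ± 381 (Klf4CN) at E16.5 (SD, n = 3 each) but 12.85 ± 2.33 and 6.55 ± 0.0707 at PN56 (SD, n = 2 each), so age and preparation cannot be told apart. Klf4 signal was higher in the Klf4CN-labelled lenses, at 717 ± 20.9 against 185 ± 40.3 at PN56 (SD, n = 2 each; log2 difference 1.88, limma adjusted p = 0.0042) and at 1079 ± 278 against 739 ± 295 at E16.5 (SD, n = 3 each; log2 difference 0.59, limma adjusted p = 0.9997). This goes against the label, although probe sets outside the deleted part of the gene would check nothing. Every direction below is that of the Klf4CN-labelled lenses.

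Because Klf4 binds DNA, the bases just before the start of Mip, the fibre channel, and of Aqp1 and Aqp5, the channels of the epithelium, are shown first. Windows from RefSeq promoters (build GRCm38.p6) were searched for 5 of the 6 members, and no window was used for Aqp4. Each window is the 250 bases before the annotated start, at chr10:128225560-128225809 for Mip, chr6:55336049-55336298 for Aqp1 and chr15:99590778-99591027 for Aqp5, all on the plus strand and written 5′ to 3′. Capitals mark 3 motifs, sought on both strands. CACCC, which reads GGGTG on the other strand, holds core letters recognised by Kruppel-like factors. GGGCGG, which reads CCGCCC there, is the GC box of Sp factors. TGCTGA, which reads TCAGCA, is part of the site of large Maf factors.
Mip: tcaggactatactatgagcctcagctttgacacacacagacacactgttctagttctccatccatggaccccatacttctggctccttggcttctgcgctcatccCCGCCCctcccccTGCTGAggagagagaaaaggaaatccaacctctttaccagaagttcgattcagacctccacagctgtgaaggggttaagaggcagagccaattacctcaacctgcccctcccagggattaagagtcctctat
Aqp1: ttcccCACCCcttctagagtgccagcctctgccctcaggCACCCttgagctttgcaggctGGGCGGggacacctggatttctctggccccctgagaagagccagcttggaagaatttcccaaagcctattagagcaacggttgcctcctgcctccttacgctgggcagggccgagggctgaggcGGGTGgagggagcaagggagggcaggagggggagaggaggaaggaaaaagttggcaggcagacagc
Aqp5: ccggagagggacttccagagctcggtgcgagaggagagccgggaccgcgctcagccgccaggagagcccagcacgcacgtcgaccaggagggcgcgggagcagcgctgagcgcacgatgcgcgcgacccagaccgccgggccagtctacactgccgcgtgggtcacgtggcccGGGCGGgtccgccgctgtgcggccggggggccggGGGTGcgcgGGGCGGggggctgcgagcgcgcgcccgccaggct
The Aqp1 window held 3 matches to CACCC, which start 245, 211 and 66 bases before the gene's start, and 6.92% of all 32851 windows of this length held 3 or more. The Aqp5 window held 1 match to CACCC and 2 to GGGCGG, and the Mip window 0 to CACCC, 1 to GGGCGG and 1 to TGCTGA. Among windows not printed, Aqp8 had 1 CACCC match, and Aqp11 had 2 and 1 match to TGCTGA. Of all windows, 52% held CACCC, 32.7% GGGCGG and 16.1% TGCTGA, and no match in the members overlapped a match to another motif. G and C made up 52% of the Mip window, 62% of the Aqp1 window and 78.4% of the Aqp5 window, against a median of 52.4% over all windows. These matches describe letters in a window and no binding was measured.

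The comparison of genotypes at PN56 asked which genes differ in the adult lens with the conditional null allele. Aqp4, Aqp1 and Mip were lower in the Klf4CN-labelled lenses, at 36.4%, 49.8% and 78.7% of the WT mean signal. Aqp5 stood at 59.6%, and Aqp5, Aqp8 and Aqp11 did not pass the test. Thus 3 of 6 members were called (limma, adjusted p under 0.05), all 3 lower, beside 13.1% of the 13444 tested genes called in either direction and 6.99% called lower. The median log2 change of the 6 members was -0.55, beside -0.057 for all tested genes. At E16.5, 0 of 6 members were called by limma, beside 0.00744% of tested genes, and the median log2 change of the members was -0.081. At an unadjusted p under 0.05 there was 1 member, Aqp5, at E16.5, beside 610 of 13444 genes. All 6 members had passed the filter on low signals, which required a mean signal of 54.1 over the 10 arrays.

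**Figure D1:**
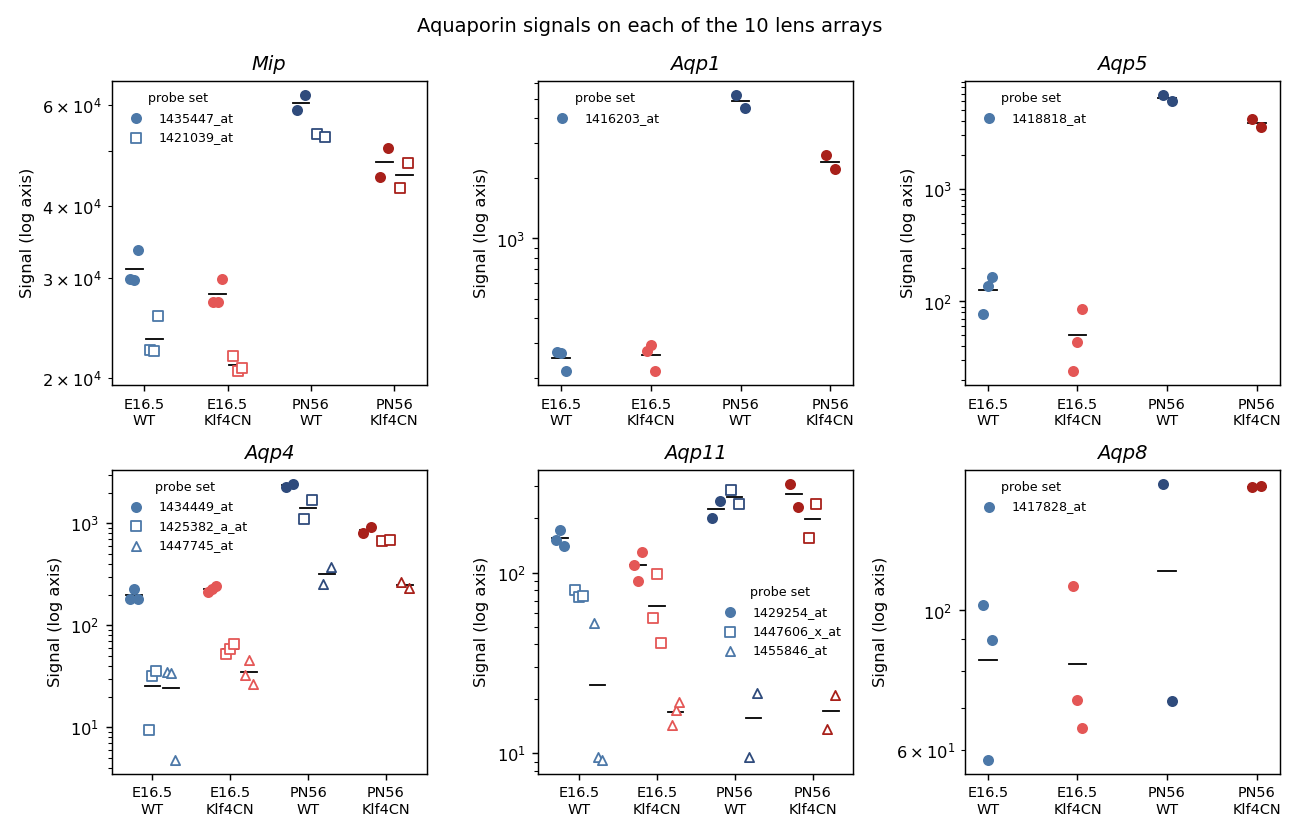
Signals of the 11 aquaporin probe sets on each array, a panel per gene, on log axes. Each marker is 1 array, its shape gives the probe set, and short bars are group means (n = 3 per group at E16.5, n = 2 at PN56). Both PN56 WT arrays lie above both PN56 Klf4CN arrays for Mip, Aqp1, Aqp5 and the brightest Aqp4 probe set. Of all tested genes, 50.7% had no overlap between genotypes at PN56.

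Mip was measured by a pair of probe sets that were brighter than 99.4% or more of all probe sets on every array. The brighter of them, 1435447_at, had signals of 29761, 29746 and 33572 in WT and 27146, 27149 and 29772 in the Klf4CN-labelled lenses at E16.5. At PN56 the signals were 58752 and 62564 in WT and 44876 and 50563 in the Klf4CN-labelled lenses. The lowest PN56 array thus stood above the highest E16.5 array, and the genotypes overlapped at E16.5 but not at PN56. Among tested genes, 11.9% had no overlap between genotypes at E16.5 and 50.7% had none at PN56. The log2 change at PN56 was -0.35 ± 0.10 (SE; limma adjusted p = 0.047), and at E16.5 it was -0.15 ± 0.085 (limma adjusted p = 0.9997). The second probe set, 1421039_at, gave signals of 53454 and 52814 in WT and 42938 and 47576 in the Klf4CN-labelled lenses at PN56, a log2 change of -0.23 that did not pass when every probe set was tested by itself (limma adjusted p = 0.28). At E16.5 it gave 22407, 22331 and 25665 in WT and 21890, 20577 and 20880 in the Klf4CN-labelled lenses, which do not overlap.

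The Mip difference at PN56 lies close to the threshold and within a general pattern of the brightest genes. It was called under 7 of 24 alternatives, with adjusted p up to 0.26. With 1 array left out the call was kept without E16.5 WT replicate 3 or PN56 Klf4CN replicate 2 and lost without each of the other arrays (log2 changes from -0.43 to -0.26, limma adjusted p from 0.047 to 0.17). Of the 83 tested genes with a PN56 WT mean signal of 40000 or more, 84.3% were lower in the Klf4CN-labelled lenses, 36.1% were called lower and their median log2 change was -0.28. The control probe set for the 3' end of beta-actin mRNA, also among the brightest, read 81660 ± 3540 in WT and 62490 ± 529 in the Klf4CN-labelled lenses at PN56 (SD, n = 2 each). Other bright controls fell less in proportion. The middle and 5' beta-actin probe sets went from means of 55060 to 46500 and 44480 to 41050. The 3', middle and 5' Gapdh probe sets went from 55500 to 48060, 51280 to 48100 and 77270 to 67790. The part of this general shift in the Mip value was not tested.

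Aqp1 is the channel of the lens epithelium and had 1 probe set. Its signals at E16.5 were 271, 268 and 216 in WT and 275, 293 and 217 in the Klf4CN-labelled lenses, so the genotypes overlapped. At PN56 they were 5235 and 4479 in WT and 2602 and 2235 in the Klf4CN-labelled lenses. Both WT arrays thus stood well above both others, at an age where 50.7% of tested genes had no overlap. The log2 change at PN56 was -1.001 ± 0.19 (SE; 95% interval -1.41 to -0.60; limma adjusted p = 0.0049) against 0.048 ± 0.15 at E16.5 (limma adjusted p = 0.9997). The difference between these effects, -1.05 ± 0.24, also passed the test (limma adjusted p = 0.030). Of the 776 tested genes with a PN56 WT mean signal from 4000 to 10000, as Aqp1 and Aqp5 had, 15.1% were called lower and the median log2 change was -0.0030.

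Aqp5, the other channel of lens epithelium and fibres, had the largest log2 rise with age among the brightest probe sets of the 6 members. Its 1 probe set gave 77.7, 136 and 166 in WT and 24, 43.6 and 85.0 in the Klf4CN-labelled lenses at E16.5, and the groups overlapped on 1 array each. At PN56 the signals were 6869 and 6091 in WT and 4149 and 3570 in the Klf4CN-labelled lenses, which do not overlap; 50.7% of tested genes had no overlap at PN56, so this by itself is near the background. The log2 change was -0.75 ± 0.38 at PN56 (SE; 95% interval -1.58 to 0.081; limma adjusted p = 0.22) and -1.14 ± 0.31 at E16.5 (limma adjusted p = 0.79), neither past the test. The difference between them was 0.39 ± 0.49 (limma adjusted p = 0.70). In a fit on the PN56 arrays alone the PN56 change passed (limma adjusted p = 0.017); the fit on all 10 arrays takes its spread from all 4 groups.

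Aqp4, best known from glia, was represented by 3 probe sets. The brightest, 1434449_at, had signals of 183, 228 and 182 in WT and 212, 229 and 242 in the Klf4CN-labelled lenses at E16.5. At PN56 it read 2253 and 2450 in WT and 797 and 913 in the Klf4CN-labelled lenses. The genotypes thus overlapped at E16.5, and both PN56 WT arrays stood above both others (50.7% of tested genes had no overlap at PN56). Its log2 change at PN56 was -1.44 ± 0.19 (SE; 95% interval -1.85 to -1.04; limma adjusted p = 0.00060), the 225th most negative of 13444 genes. At E16.5 the change was 0.19 ± 0.15 (limma adjusted p = 0.9997), and the difference between the ages was -1.64 ± 0.24 (limma adjusted p = 0.0040). Among the 1085 tested genes with a PN56 WT mean signal from 2000 to 4000, 14.7% were called lower.

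The other Aqp4 probe sets were dimmer and had the same sign at PN56. With 1425382_a_at the PN56 signals were 1103 and 1689 in WT and 676 and 684 in the Klf4CN-labelled lenses, a log2 change of -0.99 ± 0.38 that did not pass in the test of every probe set (limma adjusted p = 0.16). At E16.5 this probe set read 9.5, 32.1 and 35.3 in WT and 51.8, 59.1 and 66.2 in the Klf4CN-labelled lenses, groups that do not overlap, as for 11.9% of tested genes, and did not pass (limma adjusted p = 1). The dimmest, 1447745_at, read 257 and 374 in WT and 267 and 232 in the Klf4CN-labelled lenses at PN56, a log2 change of -0.30 ± 0.52 (limma adjusted p = 0.80). Thus 1 of the 3 probe sets passed.

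Aqp11 and Aqp8 were dim on all arrays. The brightest Aqp11 probe set, 1429254_at, read 152, 172 and 141 in WT and 110, 89.4 and 131 in the Klf4CN-labelled lenses at E16.5, and 201 and 248 in WT and 310 and 231 in the Klf4CN-labelled lenses at PN56. The genotypes did not overlap at E16.5, with WT higher (11.9% of tested genes had no overlap there), and overlapped at PN56. The log2 changes were -0.45 ± 0.24 and 0.25 ± 0.29 (limma adjusted p = 0.9997 and 0.63). A second Aqp11 probe set, 1447606_x_at, gave -0.40 ± 0.42 at PN56, the opposite sign, and 1455846_at stayed between 9.2 and 52.6 on the 10 arrays. Aqp8 ranged from 57.8 to 109 at E16.5; at PN56 it read 159 and 71.8 in WT and 157 and 158 in the Klf4CN-labelled lenses, so the WT arrays differed more between themselves than the genotypes did. Its log2 change at PN56 was 0.48 ± 0.43 (limma adjusted p = 0.51). The remaining 6 aquaporin genes of the array, Aqp2, Aqp3, Aqp6, Aqp7, Aqp9 and Aqp12, had group means from 14.9 to 90.9, and 0 of 6 passed the filter.

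**Figure D2:**
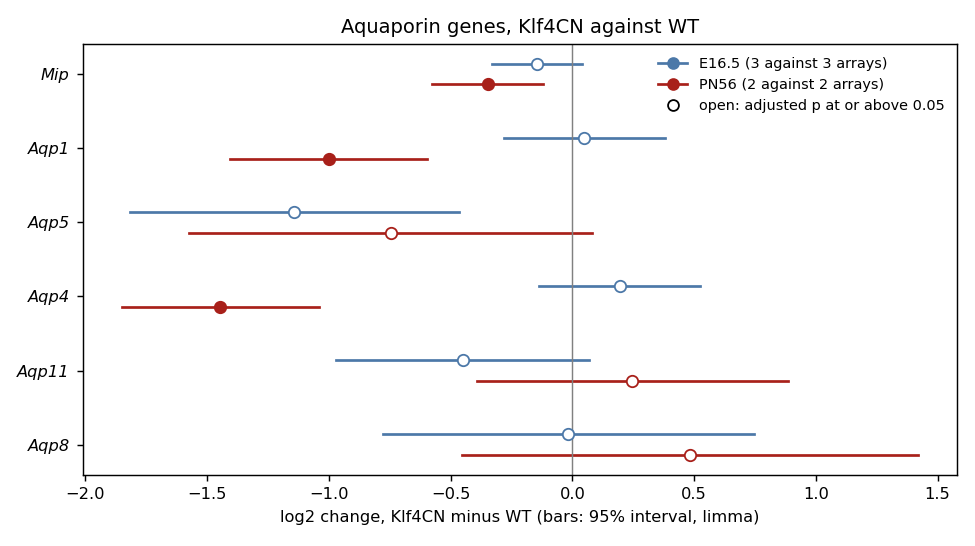
Log2 change of each aquaporin gene (brightest probe set), Klf4CN minus WT, at E16.5 and at PN56, with limma 95% intervals. Filled markers passed the test: Aqp4, Aqp1 and Mip at PN56 and no gene at E16.5.

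A test of the difference between the genotype effects at the 2 ages called 2 of 6 members, Aqp1 and Aqp4, both more negative at PN56, beside 4.61% of tested genes. The median of this difference over the 6 members was 0.096, opposite in sign to the called members, since Aqp5, Aqp8 and Aqp11 lay between 0.39 and 0.70 without passing. For Mip the difference was -0.20 ± 0.13 (limma adjusted p = 0.44), so its change at PN56 was not shown to differ from that at E16.5. For Aqp1 the call was lost when E16.5 WT replicate 3, E16.5 Klf4CN replicate 1 or 2, PN56 WT replicate 1 or PN56 Klf4CN replicate 2 was left out (values from -1.01 to -0.94, limma adjusted p from 0.057 to 0.10). Aqp4 kept it under all 23 alternatives, with adjusted p up to 0.044. This holds for its brightest probe set; 1425382_a_at and 1447745_at were at -1.9 ± 0.50 and -0.73 ± 0.67 and did not pass in the test of every probe set (limma adjusted p = 0.082 and 0.68).

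The comparison of ages asked what changes between the embryonic and the adult lens within each genotype. In WT, 4 of 6 members rose (Mip, Aqp1, Aqp4 and Aqp5), beside 56.7% of tested genes called and 25.8% called higher. In lenses labelled Klf4CN, 5 of 6 rose (these and Aqp11), beside 53.1% called and 22.3% called higher. No member fell. The median log2 change of the 6 members was 2.22 in WT and 1.51 in the Klf4CN-labelled lenses, beside -0.038 and -0.098 for all tested genes.

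Aqp5 rose with age by 5.56 ± 0.35 on the log2 scale in WT (SE; limma adjusted p = 7.505e-08) and by 5.96 ± 0.35 in the Klf4CN-labelled lenses (limma adjusted p = 5.326e-08). The lowest PN56 signal was 36.8 times the highest E16.5 signal in WT and 42 times in Klf4CN. The E16.5 Klf4CN mean of 50.9 lay under the filter of 54.1 and no detection call was used, so the size of that rise is uncertain. Aqp1 rose 19.3-fold in WT and 9.24-fold in the Klf4CN-labelled lenses (log2 4.19 ± 0.17 and 3.14 ± 0.17; limma adjusted p = 2.457e-09 and 3.022e-08). Aqp4 rose 11.9-fold and 3.76-fold (log2 3.47 ± 0.17 and 1.84 ± 0.17; limma adjusted p = 1.036e-08 and 2.369e-06), and its other probe sets also rose in both genotypes, with log2 changes from 2.40 to 5.12. The genotype difference in these rises is the difference between ages tested above, and the PN56 arrays enter both the age and the genotype comparisons.

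Mip rose 1.96-fold in WT and 1.7-fold in the Klf4CN-labelled lenses (log2 0.97 ± 0.095, limma adjusted p = 3.649e-06, and 0.77 ± 0.095, limma adjusted p = 2.86e-05). This rise depended on the scaling between arrays: after quantile normalization the log2 changes were 0.086 (limma adjusted p = 0.44) and -0.14 (limma adjusted p = 0.20). Bright controls rose with age too. The 3' beta-actin means went from 36840 to 81660 in WT and from 34780 to 62490 in Klf4CN. The 3' Gapdh means went from 29760 to 55500 and from 26660 to 48060. The part of such a general rise in the Mip value was not tested. Aqp11 rose 2.46-fold in the Klf4CN-labelled lenses (log2 1.19 ± 0.27, limma adjusted p = 0.0025) and stood 1.45-fold higher in WT without passing (0.49 ± 0.27, limma adjusted p = 0.14); its second probe set passed in both genotypes, at 1.59 and 1.43, when every probe set was tested. Aqp8 was at 0.35 ± 0.39 in WT and 0.85 ± 0.39 in the Klf4CN-labelled lenses (limma adjusted p = 0.47 and 0.087).

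**Figure D3:**
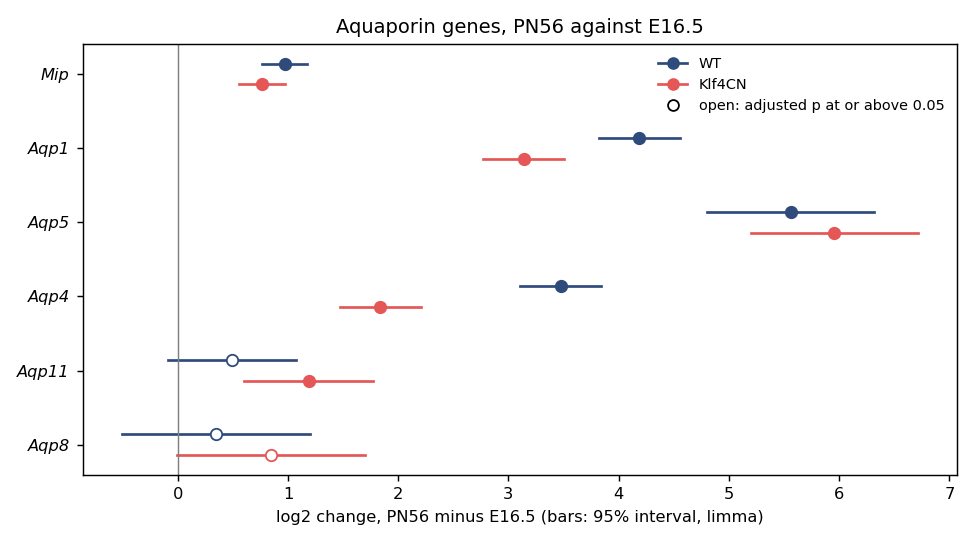
Log2 change of each aquaporin gene (brightest probe set) from E16.5 to PN56 in WT and in Klf4CN lenses, with limma 95% intervals; filled markers passed the test. Aqp5 has the largest changes, 5.56 and 5.96, and the WT and Klf4CN intervals of Aqp1 and of Aqp4 do not overlap.

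Ordered by level, Aqp1, Aqp4 (brightest probe set), Aqp5 and Mip each had PN56 WT first and PN56 Klf4CN second, with no overlap between these groups. Of all tested genes, 50.7% had no overlap between genotypes at PN56 and 11.9% had none at E16.5. The E16.5 groups came last. For Aqp1 and Aqp4 the E16.5 groups overlapped with means of 252 and 262 and of 198 and 228, for WT and Klf4CN in turn. For Mip they were 31030 and 28020, and for Aqp5 126 and 50.9, again with overlap. Aqp11 had PN56 Klf4CN first at 271 and PN56 WT next at 225, which overlapped, then E16.5 WT at 155 and E16.5 Klf4CN last at 110, neither of which overlapped a neighbour. For Aqp8 the 4 groups ran from 82.1 to 157 and neighbours in that order overlapped.

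**Figure D4:**
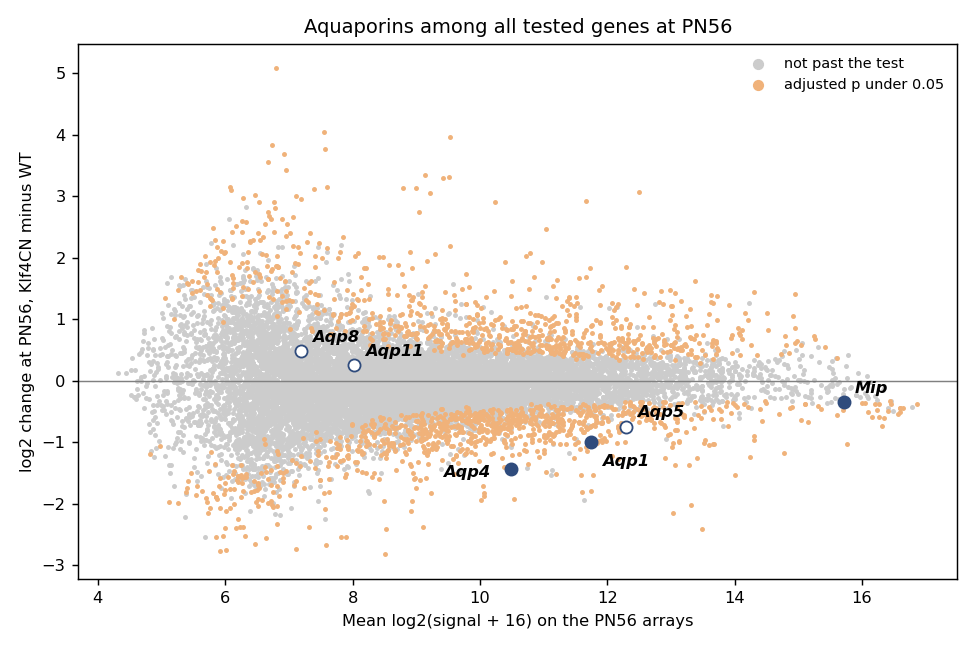
Log2 change at PN56 (Klf4CN minus WT) against mean log2(signal + 16) on the 4 PN56 arrays for the 13444 tested genes; orange genes passed the test, and the 6 aquaporin genes are named, filled where they passed. Mip sits at the bright end, where most points lie below 0, and Aqp4 and Aqp1 lie toward the lower side of genes of their brightness.

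Hybridisation spikes, control cRNAs added at a fixed amount before hybridisation, were 0.60 lower on the log2 scale on Klf4CN than on WT arrays at PN56 (mean of 16 signals) after the deposited scaling. They were 0.19 lower on Klf4CN arrays at E16.5. Scaling each array to these spikes, an alternative chosen after the data were seen, moved the median change of all tested genes at PN56 from -0.057 to 0.54. Aqp4 was then at -0.85 (limma adjusted p = 0.015), Aqp1 at -0.41 (0.21), Aqp5 at -0.15 (0.78) and Mip at 0.25 (0.20), so that the Mip value turned its sign. Relative to the median of all genes, the 4 values were -1.39, -0.94, -0.69 and -0.29, under this scaling as under the deposited one. That sameness was fixed in advance, since spike scaling moves all genes of an array by the same amount. The share of called genes that were higher at PN56 was 46.5% as deposited, 50.9% after quantile normalization, 71.9% with each array centred on its median, 33.6% when centred on the median of bright genes and 97.7% with the spikes. Between ages the spikes were higher at PN56, by 0.88 in WT and 0.47 in the Klf4CN-labelled lenses, and with spike scaling the WT age changes of Aqp5, Aqp1 and Aqp4 were 4.69, 3.31 and 2.60, all called, and that of Mip 0.092 (limma adjusted p = 0.57).

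**Figure D5:**
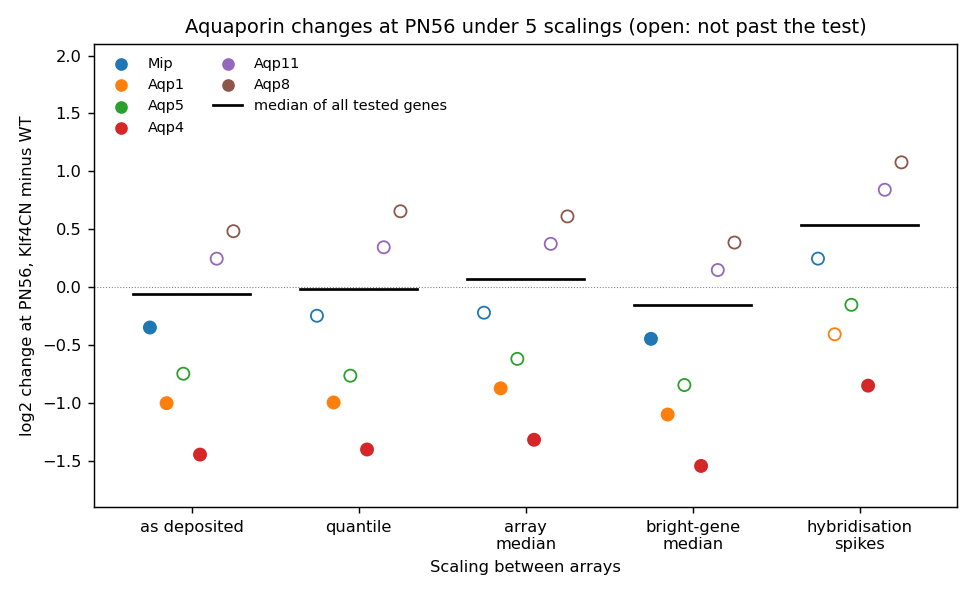
Log2 change at PN56 (Klf4CN minus WT) of the 6 aquaporin genes under 5 scalings between arrays; filled markers passed the test and black bars are the median of all tested genes. Aqp4 stays filled under all 5, Aqp1 under 4 and Mip under 2.

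Of 13 genes for proteins that bind AQP0 or lie beside it in the fibre membrane, 9 were measured by a single-symbol probe set and tested. At PN56, 1 rose and 3 fell in the Klf4CN-labelled lenses, with a median log2 change of -0.17. Over all tested genes 13.1% were called there and 6.99% were called lower. Bfsp1 (filensin) and Bfsp2 (phakinin), the beaded filament proteins that bind AQP0, fell by 0.73 and 0.46 on the log2 scale (limma adjusted p = 0.0012 and 0.016). The membrane linker Ezr (ezrin) fell by 0.55, while the related Msn (moesin) rose by 0.997 (limma adjusted p = 0.0042 and 0.0011). With age in WT 3 of the 9 rose, among them Bfsp2 at log2 4.45, and 5 fell, beside 25.8% and 30.9% of all tested genes. At E16.5, 0 of 9 were called by limma between genotypes, and 0 had an unadjusted p under 0.05. The balance of directions depended on the scaling: with median centring 1 was higher and 1 lower at PN56, and with spike scaling 4 were higher and 0 lower.

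Of the genes of lens water and ion circulation, 13 of 18 were tested. At PN56, 1 rose, Atp1b1 (a sodium pump beta subunit; log2 1.20 ± 0.32, limma adjusted p = 0.027), and 0 fell, with a median of -0.066. Over all tested genes 13.1% were called at PN56. The Atp1b1 signals in the Klf4CN-labelled lenses were 4635 and 10070, against 2580 and 3406 in WT, and the call was lost without PN56 WT replicate 1 or PN56 Klf4CN replicate 2. Slc12a2, the sodium-potassium-chloride cotransporter NKCC1, was at -0.20 (limma adjusted p = 0.49). Of the genes for the dystrophin complex that anchors AQP4 and its companion channel, 6 of 7 were tested and 0 were called by limma at PN56 (0 also at an unadjusted p under 0.05), with a median of 0.096 against -1.44 for Aqp4 itself; Dmd was at 0.22, and Dtna (dystrobrevin alpha) at 0.27. With age in WT 3 of these 6 rose, Dtna most at log2 2.38, and 2 fell, beside 25.8% and 30.9% of all tested genes. At E16.5, 0 of 13 and 0 of 6 were called by limma between genotypes, and 0 and 0 had an unadjusted p under 0.05. With spike scaling 7 of the 13 circulation genes and 4 of the 6 anchoring genes were called higher at PN56 and 0 lower.

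Markers of the cell types that carry these channels were read on the same arrays. Of 9 tested lens fibre markers 6 fell at PN56 in the Klf4CN-labelled lenses (median log2 change -0.45; summed signal 589500 to 655800 in WT and 445400 to 467100 in Klf4CN), beside the lower Mip. Over all tested genes 6.99% were called lower at PN56, and 36.1% of those with a PN56 WT mean signal of 40000 or more. Most of the fibre markers were that bright. At E16.5 the fibre sums were 215900 to 245800 and 189900 to 207800. There were 2 fibre falls without PN56 WT replicate 2 or with median centring, and 3 without PN56 Klf4CN replicate 1 or 2 or after quantile normalization. Of 10 lens epithelium markers 5 fell (Foxe3, Gja1, Tfap2a, Slc16a12 and Pdgfra; median -0.51; summed signal 45580 to 49500 and 29770 to 37680), beside the lower Aqp1. Their sums at E16.5 were 38650 to 44030 and 30020 to 41160. Slc16a12, a monocarboxylate transporter of this epithelium, fell by 1.18 (limma adjusted p = 0.00097) and Foxe3, its transcription factor, by 1.03 (0.023). There were 2 epithelial falls without PN56 WT replicate 1 or with median centring, 3 without PN56 WT replicate 2, and 1 when PN56 Klf4CN replicate 2 was left out. With spike scaling 1 fibre marker rose and 1 fell, and 3 epithelial markers rose and 1 fell. The part of these shifts in the aquaporin values was not tested.

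For other tissues, 2 of 7 tested glial markers rose at PN56 in the Klf4CN-labelled lenses and 0 fell. These were Gfap, by 1.60, and Fabp7, by 2.28 (limma adjusted p = 0.029 and 0.015). The median log2 change of the glial list was 0.46, with Slc1a3 at 0.048, Slc1a2 at 0.063 and Rlbp1 at -0.12. Without PN56 WT replicate 2 this median was 0.18, and without PN56 Klf4CN replicate 2 it was 0.39. With spike scaling 4 glial markers rose. Their summed signal was 6566 to 6687 in WT and 7971 to 10460 in Klf4CN. At E16.5 the glial sums were 1533 to 3064 and 2385 to 4670. Of 6 tested corneal and conjunctival markers 2 fell, Aldh3a1 from 12030 to 5670 and Krt6a from 205 to 37.2, while the corneal keratin Krt12 was at 87.0 and 61.1. Over all tested genes 13.1% were called at PN56 and 6.99% were called lower. There was 1 corneal fall without PN56 WT replicate 1 or PN56 Klf4CN replicate 2, and with spike scaling 1 rose and 1 fell. Their summed signal was 11920 to 14050 in WT and 5956 to 7068 in Klf4CN at PN56, against 334 to 521 at E16.5. Aldh3a1 carried most of that sum: without it the PN56 sums overlapped, at 940 to 973 in WT and 692 to 992 in Klf4CN, and Krt15 stood at 2.17 without passing (limma adjusted p = 0.099). The part of corneal tissue in the Aqp1 and Aqp5 values was not tested. Endothelial markers, whose cells express Aqp1, had sums of 4819 to 7926 at E16.5 and 400 to 731 at PN56. Of these, 8 of 8 were called lower with age in WT. Between genotypes at PN56 their sums overlapped, at 400 to 731 in WT and 451 to 568 in Klf4CN, and 1 of 8 fell, the dim Tie1, by 1.19 (limma adjusted p = 0.035; 0 fell after quantile normalization, median centring, spike scaling or with the replicate block). The sums of erythroid markers, another Aqp1 cell type, were 1917 to 2959 at E16.5 and 56.9 to 230 at PN56. Among ciliary and iris markers 1 of 6 rose at PN56, Car2 at 1.28, with list sums of 9974 to 10890 in WT and 14560 to 19050 in Klf4CN. Among pigment, retinal and muscle markers 0 of 7, 0 of 10 and 0 of 4 were called by limma at PN56, and 2, 0 and 0 had an unadjusted p under 0.05. The sums at PN56 were 7085 to 8986 and 3494 to 3776 for pigment markers, 6005 to 6072 and 4212 to 12560 for retinal markers, and 765 to 889 and 694 to 809 for muscle markers. With age in WT, 6 of 10 retinal, 4 of 7 glial and 4 of 7 pigment markers were called higher. So were 3 of 6 corneal, 2 of 6 ciliary and iris and 1 of 4 muscle markers. Among these lists, 1 retinal and 1 glial marker were called lower. Over all tested genes, 25.8% were called higher and 30.9% lower with age in WT. Ciliary and iris sums at E16.5 were 2405 to 7429 in WT and 3717 to 9096 in Klf4CN. Retinal sums there were 909 to 2700 and 2654 to 5740. The part of these other cell types in the aquaporin values was not tested. Between genotypes at E16.5, 0 of 69 tested genes of the marker lists were called by limma (15 at an unadjusted p under 0.05, beside 610 of all 13444 genes). These included 5 of 7 pigment, 4 of 10 epithelial and 3 of 10 retinal markers. Pigment markers had a median log2 change of 1.84 at E16.5, with sums of 1139 to 2862 in WT and 2500 to 8931 in Klf4CN, opposite in direction to PN56. The ribosomal control probe set for the 5' end of 18S read 1869 ± 646 in WT and 21780 ± 945 in the embryonic Klf4CN-labelled lenses (SD, n = 3 each). In adults it read 1699 ± 1660 and 8353 ± 3750 (SD, n = 2 each), also without overlap. The middle and 3' probe sets of 18S differed less, with E16.5 means of 1209 and 2950 and of 516 and 1106. In adults their means were 2216 and 1962 and 2257 and 2943, and the genotypes overlapped. The part of this RNA signal in the aquaporin values was not tested.

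The genes most like each member were the 3 with the highest Pearson r of log2 signals over the 10 arrays, which all share the same step between ages. For Mip these were Cd24a, Tuba1a and Fabp5 (r from 0.990 to 0.995, and after each age mean was subtracted 0.938 or more). After quantile normalization none of these 3 kept a place among the genes nearest to Mip. For Aqp1 they were Haus7, Mdfic and Dhx32 (0.997 to 0.998), of which Haus7 was at -0.81 and Dhx32 at -0.55 at PN56 between genotypes, both called. Arrb1, Hacd3 and Magi3 were nearest to Aqp4 (0.995 each), and Klhdc1, Mras and Gm45351 to Aqp5 (0.991 to 0.994). The nearest to Aqp11 was Cnksr1 (0.974) and to Aqp8 Mrps30 (0.902). After quantile normalization Mrps30 ranked 49, and the 3 genes nearest to Aqp1, Aqp4, Aqp5 or Aqp11 ranked from 1 to 14. Between members, Aqp1 and Aqp4 correlated at 0.979, and at 0.868 after the age means were subtracted. Aqp1 and Aqp5 correlated at 0.965, and at 0.164 after that subtraction, as descriptions over 10 arrays in 4 groups.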

How the data were processed

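Lens RNA was hybridised to Affymetrix mouse whole-genome arrays after 3' labelling, per the labels' protocols. The deposited values were linear intensities, 1 per probe set and array, made with GCOS 1.4 per the submitters' processing notes; each array's mean after trimming 2% at each end was 500. No detection call was used. Of 45101 probe sets, 64 were controls, 34945 had a single gene symbol, 932 several and 9160 none; 34741 matched RefSeq names of GRCm38.p6.

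log2(signal + 16) was fitted with limma 3.58.1 in R 4.3.3: 4 group means over all 10 arrays, eBayes with an intensity trend, two-sided tests, Benjamini-Hochberg adjustment over 13444 genes, called under 0.05. The brightest probe set stood for a gene, and a gene was tested at a mean signal at or above the 40th percentile (54.1). Folds are ratios of mean signals; log2 changes understate changes of dim genes. The fit was tested on simulated data. With 2 or 3 arrays per group, their number limits the precision, and each sample was a separate preparation per the labels. The members, the gene lists and the tests were chosen with earlier results of these data known. Genes named beside the members are Klf4, up to 4 genes of smallest p from a list, and the 3 genes most like each member; Krt12, Slc12a2, Dmd, Dtna and Pdgfra were named after their values were seen. List genes without a probe set of their own are not analysed here.

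Alternatives were 2 normalizations, 2 offsets, 2 filters, 2 uses of probe sets, 3 other fits, the replicate number as a block, leaving out each array, and 2 scalings added after the data were seen.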

Additional observations from a re-analysis of the deposited data

Results flagged for a closer look

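The effect of genotype differed between the ages for 2 aquaporin genes, by the test of that difference. For Aqp1 the log2 change (Klf4CN minus WT) at PN56 minus that at E16.5 was -1.05, with a change of 0.048 at E16.5 that was not called. The call of this Aqp1 difference was kept under 14 of 23 alternatives (limma adjusted p up to 0.23). Both PN56 Klf4CN arrays lay below both WT arrays for Aqp1, and 50.7% of tested genes had no overlap at PN56. For the brightest Aqp4 probe set the difference between the ages was -1.64, with a change of 0.19 at E16.5 that was not called. The other Aqp4 probe sets were at -1.9 and -0.73 and did not pass in the test of every probe set (limma adjusted p = 0.082 and 0.68). Age was tied to preparation and to the number of animals pooled, which cannot be told apart from it.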

How the results depend on the processing

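Between 22 and 24 alternatives gave a value for each member and comparison. The falls of Aqp4 at PN56 (log2 -1.54 to -0.85) and the age rises of Aqp1, Aqp4 and Aqp5 kept direction and call under all of them, and the fall of Aqp1 at PN56 under 23 of 24. With spike scaling the count of members called at PN56 between genotypes went from 3 to 1, and that between ages in Klf4CN from 5 to 3, the members lost being Mip and Aqp11. The count for the difference between ages went from 2 to 1 with median centring, spike scaling, no intensity trend or array weights. With an array left out the counts were 0 to 0 at E16.5, 2 to 3 at PN56, 1 to 2 for the difference, 4 to 4 with age in WT and 5 to 6 in Klf4CN. Aqp8 joined the last without PN56 WT replicate 2.

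Values that turned their sign were these. With spikes, Mip was at 0.040 at E16.5, 0.25 at PN56 and 0.21 for the difference, Aqp8 at 0.17 at E16.5 and -0.53 with age in WT, and Aqp11 at -0.39 with age in WT. With median centring, Aqp8 was at -0.17 and Aqp11 at -0.029 with age in WT. After quantile normalization, Aqp8 was at -0.094 with age in WT and Mip at -0.14 with age in Klf4CN. Aqp8 at E16.5 was at 0.048 with bright-gene centring and 0.016 with array weights, Aqp11 at PN56 at -0.022 with the mean of its probe sets, and the Aqp5 difference at -0.0044 with an offset of 64. With an array left out, Aqp1 at E16.5 ran from -0.051 to 0.17, Aqp8 at E16.5 from -0.22 to 0.12, at PN56 from -0.015 to 0.98, and with age in WT from -0.15 to 0.85. Apart from these settings' own construction, the cause was not tested.

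With the replicate number as a block, the counts of members called were 0, 3, 2, 4 and 5, as without it. Deviations of same-numbered arrays correlated at 0.271, 0.24 and 0.0524 at E16.5, and those of differently numbered arrays at -0.276 to 0.0621. At PN56 they correlated at 0.0409 and -0.0409, values that with 2 arrays per genotype can differ only in sign. Whether the numbers pair the samples cannot be settled from these values.

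With 2 arrays per genotype at PN56, leaving out 1 leaves a lone array whose spread is taken from the remaining groups. The count of all genes called at PN56, 1757, was 4694 with spikes, 2660 with every probe set tested, 1038 with the mean of probe sets, 773 in a fit on the PN56 arrays alone and 634 with array weights. For the difference, 620 became 1021, 291 (mean of probe sets), 200 (no trend) and 320 (array weights). At E16.5 the 1 gene became 0 to 8. Signals under about the offset of 16, as for Aqp4 and Aqp11 probe sets at E16.5, give no reliable fold.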

Other observations

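Among the 6 aquaporin genes below the filter, Aqp7 and Aqp9 were picked out after their values were seen. The glycerol channel Aqp9 had signals of 79.3 to 102 in WT and 11.5 to 64.2 in lenses labelled Klf4CN at PN56, and group means of 23.5 and 14.9 at E16.5. Aqp7, another glycerol channel, had signals of 45.5 to 125 in WT and 8.3 to 25.4 in lenses labelled Klf4CN at PN56. Neither was tested, and these signals lie at or below 125, against array medians of 91.0 to 108.6. Aqp2 and Aqp6, the neighbours of Aqp5 on its chromosome, had PN56 group means from 32.1 to 90.9.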
